A study of Mus musculus with 6 samples.

Results

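The cadherins described here are Cdh1, Cdh2, Cdh3, Cdh4, Cdh5, Cdh6, Cdh11, Cdh13 and Cdh16, family members of interest in the developing kidney. They were chosen by name with earlier results of these data known. The deposited expression table held all 9, among 13965 rows in all, and all 9 passed the filter on low values (1 CPM or more in 3 libraries or more, where CPM is a gene's reads scaled to a common library total). The mutant group consisted of 3 libraries from kidneys that carried the Six2-TGC transgene and 2 floxed copies of the miR-17~92 locus (flx/flx), and the control group of 3 libraries from kidneys labelled WT with 1 floxed copy (flx/+). All were taken at embryonic day 16, and each of 3 litters gave 1 mutant and 1 control library. The locus encodes the miR-17~92 microRNA cluster, and both groups carried a floxed allele of it. The Six2-TGC transgene expresses Cre recombinase in nephron progenitors, so the deletion is expected in these cells and their descendants and not in the ureteric bud, stroma or vessels that share the organ. The control label names no Six2-TGC, so what the deletion does and what the transgene does cannot be told apart. The labels do not say how many kidneys or embryos went into a library, so the library is the unit of every test. Paired by litter, p-values measure the spread of mutant-to-control differences over the 3 litters. Without litter in the model they measure the spread between libraries of a group. In both fits each row's variance is drawn toward a trend over all tested rows.

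Cadherins are calcium-dependent adhesion proteins that hold like cells together. The classical members reach from one cell to the next with extracellular repeats and bind catenins with their cytoplasmic tails, which couples the junction to actin. In the mouse kidney the family changes as mesenchyme becomes epithelium: Cdh11 is a mesenchymal cadherin, Cdh4 and Cdh6 appear in early nephron epithelia, with Cdh6 in the segment that gives rise to the proximal tubule, and Cdh1 and Cdh16 mark mature tubules and collecting ducts. By structure, Cdh13 (T-cadherin, anchored by a lipid and without a cytoplasmic tail) and Cdh16 (Ksp-cadherin, with a short tail that does not bind catenin) are not classical cadherins, although they are grouped with them here.

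The cluster encodes microRNAs of 4 seed families, and their sequences are shown because the seed, bases 2 to 8 from the 5′ end, is what pairs with a message. Capitals mark the seed. The mature sequences come from RefSeq (build GRCm38.p6) and lie on the plus strand of chromosome 14. The seeds of miR-17 and miR-20a are the same, as are those of miR-19a and miR-19b.
mmu-miR-17-5p: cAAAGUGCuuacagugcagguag
mmu-miR-20a-5p: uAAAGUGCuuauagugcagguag
mmu-miR-18a-5p: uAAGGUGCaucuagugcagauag
mmu-miR-19a-3p: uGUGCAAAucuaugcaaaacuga
mmu-miR-19b-3p: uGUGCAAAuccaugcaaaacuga
mmu-miR-92a-3p: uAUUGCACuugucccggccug

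Matches to these seeds were searched on the sense strand in the longest annotated 3′ UTR of each gene (GENCODE M21, build GRCm38). A match was 7 bases, complementary to bases 2 to 8 or to bases 2 to 7 followed by A, and an 8-base match had both. For miR-17 and miR-20a the letters were GCACTTT or CACTTTA, for miR-18a GCACCTT or CACCTTA, for miR-19 TTTGCAC or TTGCACA, and for miR-92a GTGCAAT or TGCAATA. Of the 9 cadherins 3 held a match, and both 8-base matches to miR-17/20a were in Cdh4 and Cdh6. These sites are shown with the matched letters in capitals, since Cdh4 and Cdh6 are also the members whose expression differed most between the genotypes.
Cdh6, miR-17/20a, chr15:13031952-13031974, minus strand: caagaactGCACTTTAcacagtt
Cdh4, miR-17/20a, chr2:179897139-179897161, plus strand: ctggcaggGCACTTTAccatggc
Cdh6, miR-18a, chr15:13029461-13029482, minus strand: tatctggaGCACCTTctgtaag
Cdh1, miR-18a, chr8:106669711-106669732, plus strand: ggcggcgcGCACCTTtaagccc

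The Cdh6 sites began at positions 2234 and 4726 of a 3′ UTR of 5499 bases, the Cdh4 site at position 1229 of 3455 bases, and the Cdh1 site at position 1104 of 1631 bases. No match to any of the 4 families was found in the annotated 3′ UTRs of Cdh2, Cdh3, Cdh5, Cdh11, Cdh13 or Cdh16. Among 12659 tested genes with an annotated 3′ UTR (median length 1223 bases), 22.1% held a 7-base match to miR-17/20a and 4.51% an 8-base match, and 46.7% held a match to at least one of the families. A match describes letters only, and longer UTRs such as that of Cdh6 hold more of them.

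The libraries held 46672915 to 54913325 reads in mutant kidneys and 43804667 to 49473404 reads in control kidneys, and every deposited CPM value was a whole number of reads of that total within 0.01 reads, so 1 CPM stood for 44 to 55 reads. The row that holds Mir17hg, the host transcript of the cluster, stood at 53.6, 39.8 and 44.6 CPM in mutant libraries and at 34.1, 36.4 and 23.0 CPM in control libraries, and it was higher in mutant kidneys (log2 difference 0.57, adjusted p = 0.0292 by limma, and 0.59 with the length and GC trend removed). It joins 7 identifiers and does not separate the deleted stretch from the rest of the host transcript, so it does not check the genotype labels. Of 8 markers of nephron progenitors 6 fell and none rose when paired by litter, a fit that called 3.51% of all tested rows lower, and 6 fell with the trend on length and GC content removed. Their summed level was 295 to 312 CPM in mutant and 519 to 568 CPM in control kidneys. This list was chosen with earlier results of these data known, so its counts and sums carry no independent weight. On the log2 scale Cited1 (-2.07), Traf1 (-1.61), Meox1 (-1.54) and Capn6 (-1.07) fell most. Six2 (-0.39) and Eya1 (-0.35) fell less, and Osr1 (0.08) and Crym (-0.11) were not called. When each library's trend on transcript length and GC content was removed, 849 of 13517 rows with a known length were called different between the genotypes, in place of 1574 of 13766, so the changes of the cadherins and the counts of each gene list are also given on that basis. The RNA is from whole kidneys, and in such bulk samples a lower number of cells of a type and less RNA per cell cannot be told apart.

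Cdh6, Cdh4, Cdh5 and Cdh16 were higher in mutant kidneys and none of the 9 was called lower, in the comparison of mutant with control kidneys paired by litter (limma on log2(CPM + 0.5), called at a Benjamini-Hochberg adjusted p below 0.05 over all 13766 tested rows). The same test called 7.93% of all tested rows higher, 3.51% lower and 11.4% in either direction. Of the 9 cadherins, 4 rose and 5 did not pass. The 9 were chosen with earlier results of these data known, so this count and those that follow carry no independent weight. The levels of mutant and control libraries did not overlap for 5 members, all with mutant kidneys higher, against 10.2% of all tested rows (7.12% did so with mutant kidneys lower, and 17.3% in either direction). Within litters, 8 members were higher in the mutant library in 3 of 3 litters, against 28.3% of all tested rows, and Cdh2 was lower in 3 of 3 litters, against 22.2%. The median log2 difference of the 9 was 0.21, and that of all tested rows was 0.01. Without litter 1, Cdh4 and Cdh6 were the 2 members called, and 336 rows in all were called in place of 1574. Without litter in the model none of the 9 passed in a fit that called 0.559% of all rows, while 5 had an unadjusted p below 0.05 by limma, as did 11.3% of all rows. With the trend on length and GC content removed, 4 of the 9 were again called higher and none lower, and these were Cdh4, Cdh5, Cdh6 and Cdh16; of all rows, 4.25% were called higher, 2.03% lower and 6.28% in either direction.

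**Figure D1:**
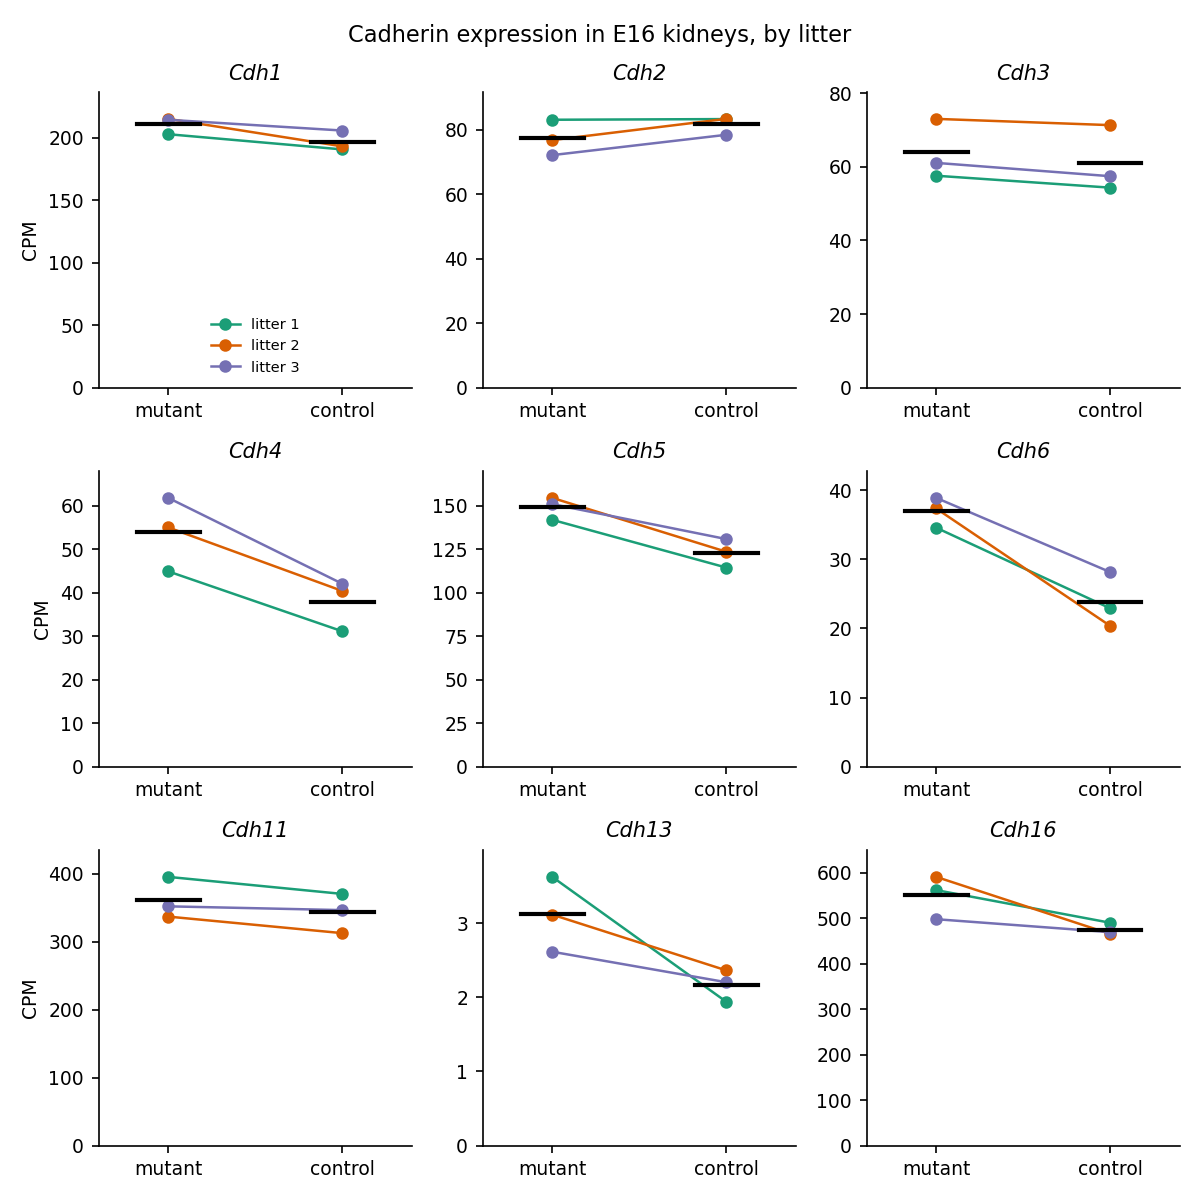
CPM of each cadherin (vertical axis from 0, its own scale in each panel) in mutant and control kidneys, with lines joining the libraries of a litter and black bars at the group means. Mutant libraries lie above every control library for Cdh4, Cdh5, Cdh6, Cdh13 and Cdh16, and the lines of Cdh2 run the other way.

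Cdh6, the cadherin of the early proximal nephron, whose loss in mice delays the conversion of mesenchyme to epithelium, had the largest difference of the 9. It stood at 34.6, 37.3 and 38.9 CPM in the mutant libraries of litters 1, 2 and 3, against 22.9, 20.4 and 28.1 CPM in the control libraries. The lowest mutant value exceeded the highest control value, and the mutant libraries lay closer together than the controls. Cdh6 rose by 0.63 on the log2 scale (SE 0.08, n = 3 litters, adjusted p = 0.00471 by limma), which is 1.55-fold with a 95% interval from 1.36 to 1.77. Here and below, SEs and intervals of log2 differences use limma's variance, which is drawn toward a trend over all tested rows. They are not the spread of the 3 litters alone, whose log2 differences for Cdh6 were 0.58, 0.86 and 0.46 in litters 1, 2 and 3. In CPM, the mutant library exceeded its control 1.51-fold, 1.83-fold and 1.38-fold in litters 1, 2 and 3, so litter 2 showed the widest gap and also held the lowest control value. The reads behind these values, 5533 in mutant and 3291 in control libraries, gave a ratio of 1.54 after division by the library totals. Its exact binomial 95% interval of 1.47 to 1.61 covers the counting of reads alone, and copies made in PCR were not told apart from separate molecules. Of all tested rows, 0.828% had a larger increase. After the length and GC trend was removed the difference was 0.52 (SE 0.09, adjusted p = 0.0143). Without the litter term the adjusted p was 0.0663. Cdh6 has the longest transcript of the 9, at 8167 bases, against a median of 3210 bases for tested rows with a known length.

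Cdh4, or R-cadherin, found in the early epithelia of the mouse kidney, came next. Its row also holds a second Ensembl identifier that the annotation used here does not name, so reads of the 2 cannot be separated. The row stood at 44.9, 55.1 and 61.9 CPM in mutant libraries and at 31.2, 40.4 and 42.1 CPM in control libraries of litters 1, 2 and 3. The groups did not overlap, and litter 1 was the lowest in both. The difference was nearly the same size in each litter, 0.52, 0.44 and 0.55 on the log2 scale in litters 1, 2 and 3. Cdh4 rose by 0.50 (SE 0.06, adjusted p = 0.00262 by limma, 0.199 without the litter term), or 1.42-fold with a 95% interval from 1.30 to 1.55. With the length and GC trend removed it was 0.39 (SE 0.06, adjusted p = 0.00848). Leaving out any one litter left Cdh4 and Cdh6 called in the paired fit, with an adjusted p of at most 0.0180 for Cdh4 and 0.0184 for Cdh6.

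Both cadherins with an 8-base miR-17/20a match were among the 4 that rose. Cdh5 and Cdh16 rose without any match, with log2 differences of 0.28 and 0.21. Cdh13, also without a match, stood at 0.43 and was not called. Across the genes with a 3′ UTR, 571 held such a match. Of these, 15.8% were called higher and 0.350% lower, with a median log2 difference of 0.11. Of the 2227 genes with a 7-base match only, 12.5% were called higher and 1.62% lower, with a median of 0.06. Of the 9861 genes with no match to miR-17/20a, 6.75% were called higher and 4.06% lower, with a median of -0.003. Genes with an 8-base match had longer UTRs, with a median of 2741 bases against 965 bases. With the length and GC trend removed the shares were closer: 6.65% of the genes with an 8-base match were called higher and 1.93% lower, against 4.01% higher and 1.87% lower of those with no match, and the medians were 0.06 and 0.01. Of the genes with a 7-base match only, 5.34% were then called higher and 2.51% lower, with a median of 0.02. No test was made of the differences between these shares, or of the part that the sites play.

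Cdh5, or VE-cadherin, forms the junctions between endothelial cells, which do not descend from Six2-positive progenitors. It stood at 142, 154 and 151 CPM in mutant libraries and at 114, 124 and 131 CPM in control libraries of litters 1, 2 and 3, with no overlap. The log2 difference was 0.28 (SE 0.05, adjusted p = 0.00971 by limma, 0.222 without the litter term), or 1.21-fold, and 0.24 (SE 0.04, adjusted p = 0.0137) with the length and GC trend removed. Without litter 1 the adjusted p was 0.0876, at a difference of 0.26. Of 10 other endothelial markers 4 rose and none fell, against 7.93% of all tested rows called higher, with a median log2 difference of 0.16 and a summed level of 1067 to 1090 CPM in mutant and 961 to 975 CPM in control kidneys. Those called were the receptor genes Kdr (log2 difference 0.33), Tek (0.25), Tie1 (0.22) and Flt1 (0.20). With the length and GC trend removed 3 were called and Flt1 was not, at 0.07 (adjusted p = 0.456 by limma), and without the litter term none was. Not called in the paired fit, Emcn and Sox17 stood at -0.02 and -0.003. The endothelial list was chosen with earlier results of these data known, so its counts and sums carry no independent weight. The part that endothelial content plays in the Cdh5 result was not tested.

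Cdh16, the kidney-specific cadherin of tubule and collecting duct epithelium, was the most abundant of the 9. It stood at 562, 591 and 498 CPM in mutant libraries and 490, 466 and 469 CPM in control libraries. The groups did not overlap, but the mutant library of litter 3 came close to the controls. Cdh16 rose by 0.21 on the log2 scale (SE 0.05, adjusted p = 0.0362 by limma, 0.334 without the litter term), or 1.16-fold, and by 0.22 (SE 0.04, adjusted p = 0.0249) with the length and GC trend removed. This call rested on litters 1 and 2: the adjusted p was 0.167 without litter 1 and 0.0958 without litter 2, where the difference was 0.14.

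The other cadherins did not pass, and their intervals bound how far they differed. Cdh1, or E-cadherin, the main epithelial cadherin, stood at 203, 215 and 214 CPM in mutant and 191, 193 and 206 CPM in control libraries, which overlapped. Its log2 difference was 0.10 (95% interval 0.01 to 0.20, adjusted p = 0.147 by limma), and 0.05 with the length and GC trend removed. Cdh3, or P-cadherin, stood at 57.6, 73.0 and 61.1 CPM in mutant and 54.4, 71.3 and 57.5 CPM in control libraries. Its spread followed the litter, since both libraries of litter 2 were the highest of their group, and its log2 difference was 0.07 (95% interval -0.05 to 0.18, adjusted p = 0.405). With the length and GC trend removed the Cdh3 difference was 0.02.

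Cdh11, the mesenchymal cadherin, stood at 395, 337 and 352 CPM in mutant and 370, 313 and 346 CPM in control libraries. It too moved with the litter, highest in litter 1 and lowest in litter 2 in both groups, and its log2 difference was 0.08 (95% interval -0.01 to 0.16, adjusted p = 0.234 by limma). With the length and GC trend removed the Cdh11 difference was 0.005. Cdh2, or N-cadherin, found in mesenchymal cells and the proximal tubule, stood at 83.1, 76.8 and 72.2 CPM in mutant and 83.3, 83.4 and 78.5 CPM in control libraries. In litter 1 the 2 libraries were almost equal, and the log2 difference was -0.08 (95% interval -0.20 to 0.03, adjusted p = 0.324), or -0.15 with the length and GC trend removed (adjusted p = 0.113). Cdh13, the tailless T-cadherin of vessels and smooth muscle, was the least abundant, at 3.62, 3.11 and 2.61 CPM in mutant and 1.94, 2.36 and 2.20 CPM in control libraries. The groups did not overlap and the log2 difference was 0.43, but its 95% interval ran from 0.08 to 0.78 and the adjusted p was 0.103. With the length and GC trend removed the Cdh13 difference was 0.40 (adjusted p = 0.152 by limma). With 468 reads in mutant and 298 in control libraries, its ratio of 1.44 had an exact counting interval of 1.24 to 1.67. The gap was widest in litter 1.

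**Figure D2:**
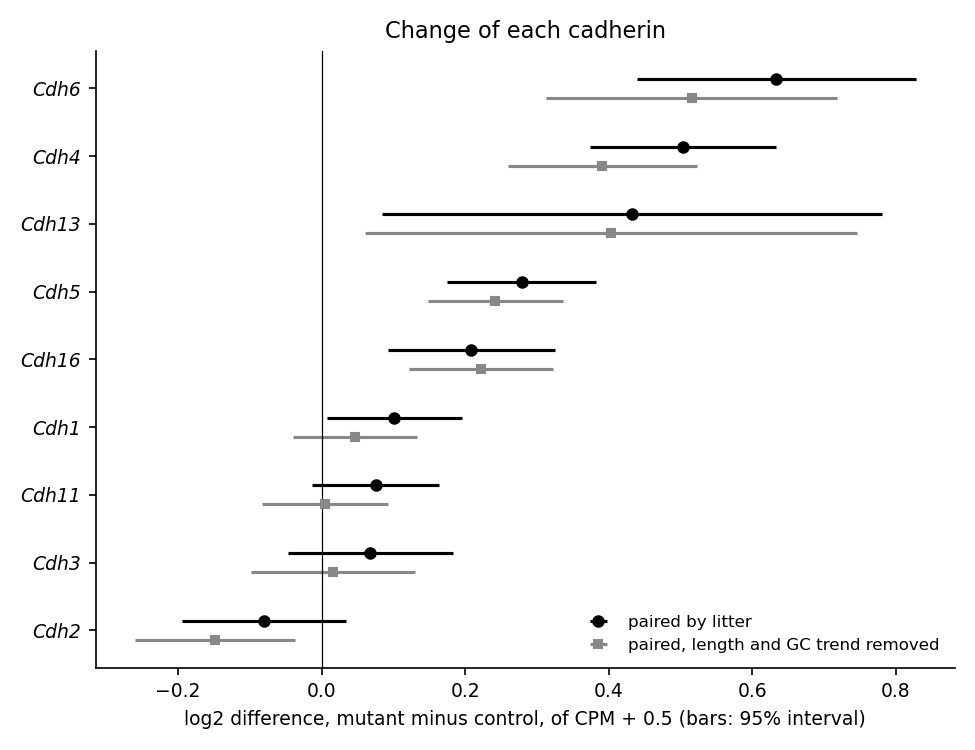
Log2 difference of each cadherin, mutant minus control, with its 95% interval, paired by litter (black circles) and with each library's trend on transcript length and GC content removed as well (grey squares). Cdh6 and Cdh4 lie farthest to the right at 0.63 and 0.50, Cdh13 has the widest interval, and Cdh2 alone lies below 0.

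Because longer transcripts yield more reads, levels of different cadherins were compared as CPM per kilobase of the longest protein-coding transcript. On this scale Cdh16 led with 188 ± 16.3 in mutant and 163 ± 4.51 in control kidneys (SD, n = 3 each). Cdh11 followed with 64.0 ± 5.37 and 60.8 ± 5.14, then Cdh1 with 47.6 ± 1.55 and 44.3 ± 1.83, and Cdh5 with 37.3 ± 1.63 and 30.8 ± 2.05 CPM per kilobase in mutant and control kidneys. Cdh2 (16.0 ± 1.14 in mutant, 16.9 ± 0.586 in control) and Cdh3 (14.6 ± 1.85 in mutant, 13.9 ± 2.06 in control) overlapped in both groups and cannot be ranked. Cdh4 stood at 8.45 ± 1.33 in mutant and 5.93 ± 0.923 in control, Cdh6 at 4.52 ± 0.268 and 2.91 ± 0.486, and Cdh13 at 0.823 ± 0.133 and 0.573 ± 0.0564 CPM per kilobase. The order of means on this scale was the same in both groups, and the members that rose most were among the least abundant. Of the summed level of the 9, Cdh6 made up 1.18% in mutant and 0.860% in control kidneys, and Cdh16 49.3% and 48.0%. Both the order and the shares depend on the length used. With the median length of a gene's protein-coding transcripts, Cdh16 still led and Cdh6 and Cdh13 were still last, but the places between them moved. Cdh4 reached 44.7 in mutant and 31.4 in control kidneys, above Cdh2 and Cdh3, and Cdh5 reached 68.7 and 56.6, which was above Cdh1 in both groups and above Cdh11 in mutant kidneys alone. Cdh16 then made up 76.1% of the sum in mutant and 75.9% in control kidneys, and Cdh6 0.400% and 0.297%.

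**Figure D3:**
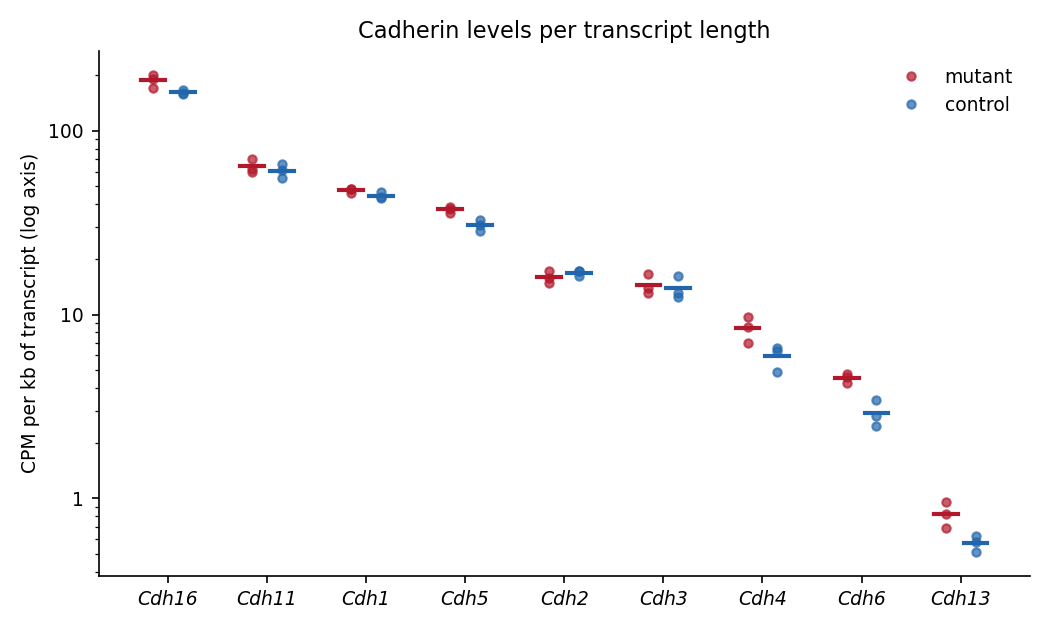
CPM per kilobase of transcript (log axis) for the 9 cadherins in mutant (red) and control (blue) kidneys, with 1 point per library and bars at the means. The levels run from 188 and 163 for Cdh16 to 0.823 and 0.573 for Cdh13 in mutant and control kidneys, and only Cdh2 and Cdh3 overlap as neighbours within each group.

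Among the partners that join cadherins to the cytoskeleton the share called was near that of all genes. Of 26 measured adherens junction genes 3 rose and 1 fell, or 15.4% called against 11.4% of all tested rows, with a median log2 difference of 0.07. The genes that rose were Vcl, encoding vinculin, which ties alpha-catenin to actin (109 ± 1.19 CPM in mutant and 88.6 ± 10.9 CPM in control kidneys, log2 difference 0.30), Tjp1, encoding the scaffold ZO-1 (0.24), and Afdn, encoding afadin, which anchors nectins (0.23). Ctnnal1, an alpha-catenin relative, fell by 0.21 on the log2 scale. With the length and GC trend removed none of the genes that rose passed, and Ctnnal1 still did, with adjusted p = 0.0308 by limma. Without the litter term none of the 26 passed, and 4 had an unadjusted p below 0.05 by limma. The catenins known to bind cadherin tails, named for that role after their values were seen, did not pass. Ctnnb1 (beta-catenin) had 1644 ± 51.9 CPM in mutant and 1704 ± 56.8 CPM in control kidneys, and its close relative Jup (plakoglobin) differed by 0.10 on the log2 scale. In the p120 family the log2 differences were 0.11 for Ctnnd1, 0.37 for Ctnnd2 (adjusted p = 0.0525 by limma), -0.004 for Arvcf and 0.07 for Pkp4. Ctnna1 (alpha-catenin), which binds beta-catenin and not the cadherin, differed by 0.06.

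Elsewhere in the superfamily, leaving aside the Fat, Dachsous and clustered protocadherin genes, 8 of 24 tested genes rose and 1 fell, or 37.5% called against 11.4% of all tested rows, with a median log2 difference of 0.33. With the length and GC trend removed 5 rose and 1 fell, in a fit that called 6.28% of rows, and the median was 0.24. Without the litter term 1 gene, Cdhr1, was called. This list too was chosen with earlier results of these data known, so its counts carry no independent weight. The gene that fell was Cdhr1, known from photoreceptors, at 3.23, 3.73 and 4.33 CPM in mutant libraries and 8.79, 10.5 and 10.6 CPM in control libraries. The groups were far apart, and the log2 difference was -1.30 with an SE of 0.10 (adjusted p = 0.000918 by limma, 0.00394 without the litter term), or -1.35 with the length and GC trend removed. Those that rose most were the protocadherin genes Pcdh10 (0.68 on the log2 scale) and Pcdh7 (0.48), the desmosomal cadherin gene Dsc2 (0.52; 27.4 ± 2.96 CPM in mutant, 19.0 ± 1.71 CPM in control), the calsyntenin gene Clstn3 (0.45) and Celsr1, a seven-pass cadherin of planar polarity (0.36). Cdh8, Cdh10, Cdh22 and Cdh24 were the other genes with a numbered Cdh symbol in the table: Cdh8 was too low to be tested, and the rest did not pass, with differences of 0.45, 0.50 and 0.04.

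**Figure D4:**
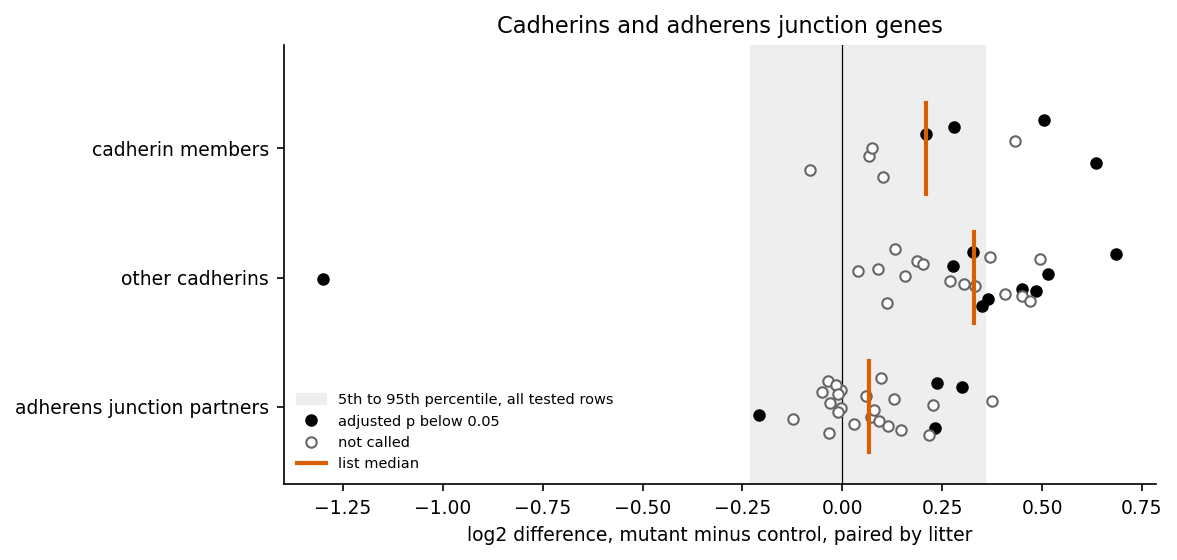
Log2 difference (mutant minus control, paired by litter) of each gene in 3 lists, filled where the adjusted p was below 0.05, with an orange bar at the list median and grey from the 5th to the 95th percentile of all tested rows (-0.23 to 0.36). The medians are 0.21 for the 9 cadherins, 0.33 for other cadherins and 0.07 for adherens junction partners, and Cdhr1 stands alone at -1.30.

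Markers of the cells in which these cadherins are known were called higher more often than lower, and some of these calls were lost with the length and GC trend removed. For comparison, 7.93% of all tested rows were called higher and 3.51% lower, and 4.25% and 2.03% with that trend removed. The marker lists here and below were chosen with earlier results of these data known. Their counts and sums carry no independent weight. Of 12 early nephron markers 3 rose and 1 fell, with a median log2 difference of 0.09 and a summed level of 762 to 855 CPM in mutant and 716 to 777 CPM in control kidneys. Jag1 (0.27), Wnt4 (0.28) and Ccnd1 (0.16) rose, Fgf8 fell by 0.58 on the log2 scale, and Lhx1 stood at -0.10. With the trend removed Wnt4 alone was called (adjusted p = 0.0281 by limma), while Jag1, Ccnd1 and Fgf8 had adjusted p-values of 0.0832, 0.0774 and 0.0579.

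Of 10 proximal tubule markers 6 rose and none fell, with a median of 0.27 and a sum of 984 to 1188 CPM in mutant and 804 to 939 CPM in control kidneys. With the trend removed 3 were called, Pck1 (1.51), Keg1 (0.69) and Aqp1 (0.37), and without the litter term Pck1 alone was. The 4 not called in the paired fit were Slc5a2 (0.18), Slc34a1 (0.02), Slc3a1 (-0.04) and Ass1 (-0.15). Of 12 ureteric bud and collecting duct markers 4 rose and none fell, and 4 were called with the trend removed (Krt8 in place of Ret). Their median was 0.19 and their sum 1018 to 1067 CPM in mutant and 931 to 949 CPM in control kidneys. Among those not called in the paired fit, Aqp2 (-0.20), Wnt11 (-0.17) and Tfap2b (-0.09) were lower in mutant kidneys. Of 10 stromal markers 2 rose, Pdgfra (0.51) and Foxd1 (0.31), with a median of 0.29 and a sum of 3332 to 3981 CPM in mutant and 2891 to 3192 CPM in control kidneys. With the trend removed Pdgfra and Dcn were called, and Foxd1 had an adjusted p of 0.0975 by limma. Without the litter term Pdgfra alone among the stromal markers was called, and none of the early nephron or ureteric bud markers was. No gene of these marker lists was at 0 in every library. The part of these cells in the changes of Cdh6, Cdh4 and Cdh16 was not tested. Of markers of tissues that can adhere to a kidney, none of 6 for skeletal muscle, 1 of 6 for adrenal gland and gonad and 3 of 7 for nerve were in the table. Of the nerve markers Elavl4 fell, at 4.26, 2.28 and 2.66 CPM in mutant and 9.04, 9.13 and 6.33 CPM in control libraries (log2 difference -1.30, adjusted p = 0.00365 by limma), and Stmn2 stood at 0.40 (adjusted p = 0.0661).

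**Figure D5:**
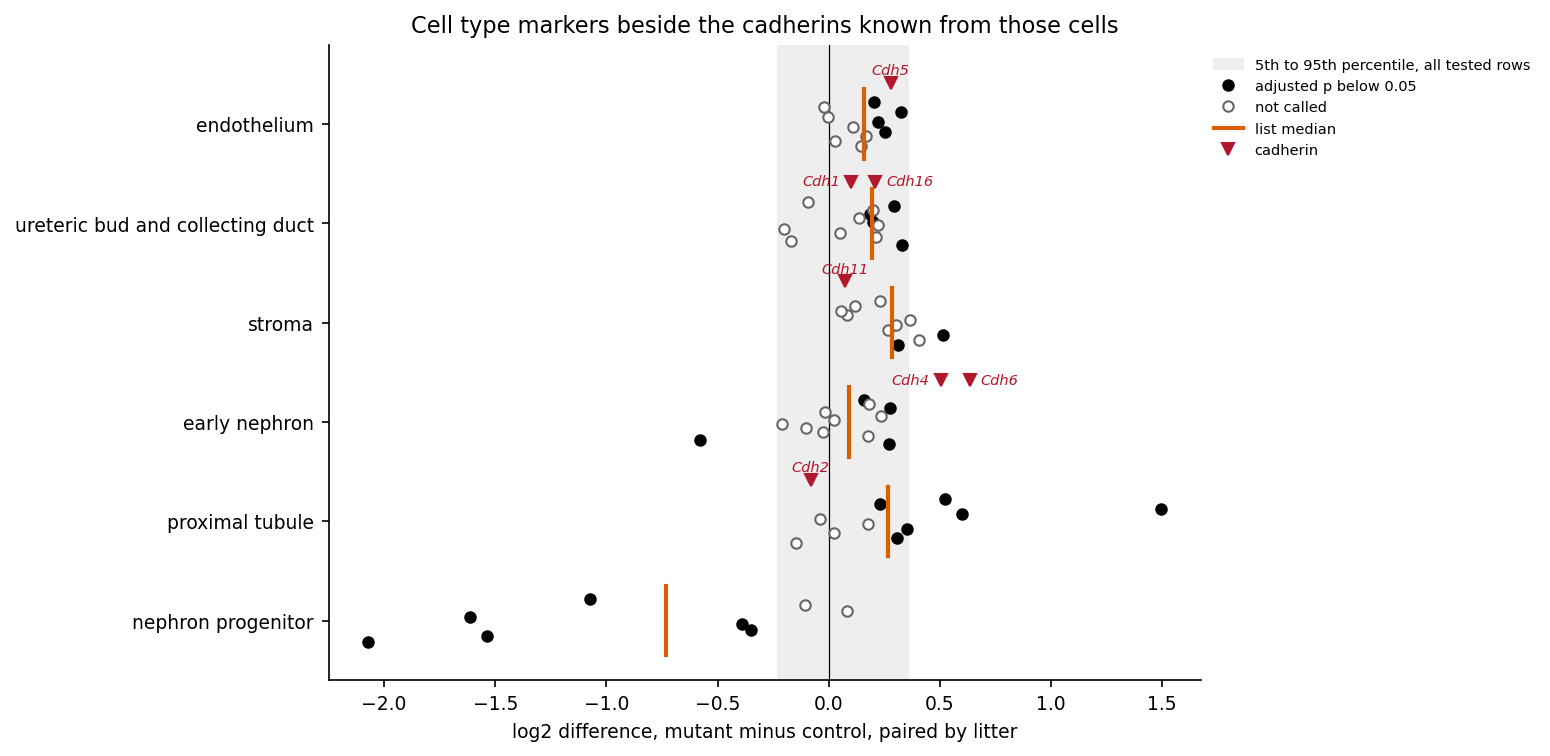
Log2 difference (mutant minus control, paired by litter) of cell type markers, filled where the adjusted p was below 0.05, with orange bars at the list medians and red triangles at the cadherins known from those cells. Cdh4 and Cdh6 lie to the right of every early nephron marker, and Cdh5 lies among the endothelial markers that rose. Nephron progenitor markers lie mostly to the left with a median of -0.73. All these lists were chosen with earlier results of these data known.

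Among 220 rows with a mean of at least 5 CPM and a paired difference within 0.2 of that of Cdh6, those that tracked Cdh6 most closely over the 6 libraries were Prickle2 (Pearson r 0.991), the joined row that holds Fzd10 (0.990), Adgrl3 (0.989), Bnc2 (0.986) and Fat3 (0.985), itself an atypical cadherin. Candidates were limited to rows with a difference near that of Cdh6, and the highest r of 220 were kept. High values of r therefore follow in part from this choice. These values describe 6 libraries that share litters and genotype, and no test was attached to them.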

How the data were processed

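Per the labels, RNA was taken from flash-frozen kidneys and made into Illumina TruSeq libraries from 1 ug each. Per the submitters' processing notes, TopHat2 2.0.9, Picard and SAMtools were used with build NCBIM37; the counting program and annotation are not given in the sources used here, nor whether strand was used. The authors deposited CPM values, and 526 of 13965 rows join more than 1 Ensembl identifier. Symbols, transcript lengths, UTRs and coordinates came from GENCODE M21 (GRCm38), another build, so coordinates here refer to GRCm38 only; 13695 rows had a symbol. In that annotation no exon of another gene overlaps an exon of the 9 cadherins.

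The 13766 rows that reached 1 CPM in 3 or more libraries were fitted on the log2(CPM + 0.5) scale with genotype and litter as terms and a mean-variance trend, by limma (version 3.58.1, under R 4.3.3). Fold changes on this scale are understated for low genes. SEs, intervals and p-values use each row's variance after limma has drawn it toward that trend. P-values were adjusted over all rows. The pairing comes from the labels, which name each library's litter. Across genes, deviations from the group means correlated at 0.619, 0.446 and 0.312 within litters 1, 2 and 3. Between different litters they ran from -0.514 (mutant of litter 2, control of litter 1) to 0.172 (mutant of litter 2, control of litter 3). The length and GC correction subtracted a spline fit per library over the 13517 rows with a known length. Exact permutation tests were not used, since 3 against 3 libraries allow no p below 0.1 and 3 pairs none below 0.25. The limma fit, with and without litter, was first tested on simulated counts with known changes, and the scaling functions on known factors. The length and GC correction was not tested in this way. The members and lists were chosen with earlier results of these data known. All 9 members are named; of each list, up to 6 called genes with the largest change and the markers needed to describe a cell type.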

Additional observations from a re-analysis of the deposited data

How the results depend on the processing

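The litter term decided most calls. Without the replicate block, 77 genes were called in place of 1574, 0 of the 9 cadherins (5 with an unadjusted p below 0.05 by limma), 0 adherens junction genes in place of 4 and 1 other cadherin in place of 9, and Cdh6 had an adjusted p of 0.0663 by limma; its log2 difference of 0.63 cannot change when the block is dropped from complete pairs. With litter kept and each library corrected for length and GC content, 849 genes, 4 cadherins and 1 adherens junction gene were called. Leaving out a litter gave 336 (without litter 1) to 2295 genes, 2 to 4 cadherins and log2 differences of 0.52 to 0.72 for Cdh6. Without the block, and without mutant library 1, 2 or 3 or control library 1, 2 or 3 in that order, 69, 36, 23, 103, 28 and 46 genes were called, and Cdh6 differed by 0.68, 0.62, 0.60, 0.61, 0.53 and 0.76. Cdh6 was called only without control library 3 (adjusted p = 0.0446 by limma, with 0.0630 to 0.313 in the other 5), and there was the 1 cadherin called against 0 in the others. Cdh3, not called in any fit, turned to -0.031 without mutant library 2 and -0.010 without control library 1, within a range up to 0.18. The cause of these shifts was not tested. Median-ratio and trimmed-mean scaling, pseudocounts of 0.1 and 2 CPM and no filter each left the same count of 4 cadherins called. Median-ratio scaling called 909 genes higher and 593 lower, against 1091 higher and 483 lower. Counting 8-base matches only left 2 cadherins with a seed match in place of 3. The planned edgeR and DESeq2 tests were not run. Every value was a whole number of reads of the recovered totals, but the unit check set for those tests needed more low values than the table holds. Depth limits Cdh13 most, with 766 reads over the 6 libraries.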
